A study of Sorghum bicolor with 96 samples.

Results

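The cold response of SC224 leaves at ZT1 was taken from the 6 libraries that carry this genotype label and time in the cold experiment, 3 from plants exposed to cold and 3 from controls, out of 96 libraries in the series. The libraries were chosen by their titles. Leaf transcripts of sorghum, a cereal of tropical origin that is sensitive to chilling, were measured by sequencing polyA RNA from the line labels RTX430, SC224 and Macia, in control conditions or after 1 h of cold or heat at 4 times of day. The submitters describe SC224 as tolerant to cold and RTX430 as sensitive.

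Growth temperatures were 30 °C in the day and 20 °C in the night for all plants. The SC224 cold group had 1 h at 10 °C at ZT1, and its controls were sampled at ZT1 without that hour. Zeitgeber time (ZT) counts hours since lights came on, so ZT1 is early morning. The treatment text gives ZT0 as the earliest time, while the sample labels and the design text give ZT1, which is used here. Also used were SC224 at the later times ZT6, ZT9 and ZT15, with and without the same cold hour, RTX430 of the cold experiment at the same times, and the ZT1 heat groups of Macia and of RTX430 from the heat experiment, each group with 3 libraries. The labels state biological replicates. The number of plants per library and the plants' age are not given in the sources used here.

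In plants, a fall in temperature is followed by rapid changes in transcript levels, and in Arabidopsis the CBF/DREB transcription factors are among the earliest genes induced. The circadian clock, which times the daily rise and fall of a large part of the leaf transcriptome, is known in Arabidopsis to gate that induction. Genes that peak in the morning and genes that peak in the evening or at night are therefore read separately here. The count table does not pair its identifiers with gene names, and the RefSeq table at hand matched 0 of its nuclear identifiers. Genes are therefore described by level, time of day and response, gene families are not named, and the leaf label could not be checked against leaf markers.

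The 6 libraries held 1933892 to 7870960 counts and 18714 to 21301 detected genes. Control replicate 1 stood apart in the genes that separate the line labels. Such genes were found as those with a median above 3 CPM (counts per 1000000 counts of the library) over the 24 libraries of a label and under 0.05 CPM in the labels they are absent from. The 33 genes seen in SC224 and in the heat-experiment RTX430 only summed to 112 CPM in control replicate 1. In the other 2 controls they summed to 440 and 525 CPM, and in the 3 cold libraries to 360, 508 and 440 CPM. In the ZT1 controls of the cold-experiment RTX430 they summed to 1.14, 1.13 and 0.287 CPM. These last sums follow from the choice of the genes and are a description. That such genes were found means that the RTX430 label covers different genes of this kind in the cold and heat experiments. The cause was not tested, and the line labels are used here as labels only.

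The 59 genes otherwise seen only in the cold-experiment RTX430 summed to 130 CPM in control replicate 1 and to 0.289 to 3.62 CPM in the other 5 libraries. In the RTX430 controls of the same time they summed to 394, 518 and 581 CPM. The 45 genes otherwise seen only in Macia summed to 194 CPM in control replicate 1, to between 0 and 0.517 CPM in the other 5 libraries, and to 269, 357 and 337 CPM in the ZT1 controls of Macia. Control replicate 1 therefore carried transcripts of all 3 gene groups, and the results that rest on the SC224 ZT1 calls are given with it and without it. Of the 59 genes of RTX430, 8 were called lower in the cold at ZT1 with this library, beside 6.13% of all genes tested. Without it 0 were called. The genes were chosen for a median under 0.05 CPM in SC224, so that count is a description and no test.

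**Figure D1:**
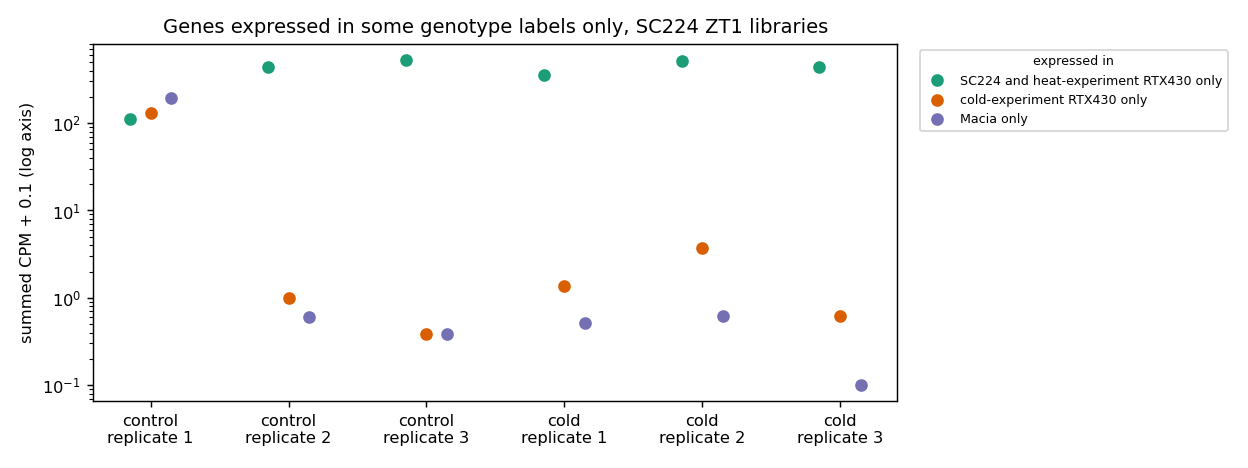
Summed level of 3 groups of genes in each SC224 library at ZT1, in CPM plus 0.1 on a log axis, 1 point per library and gene group. In control replicate 1 the groups sit at 112, 130 and 194 CPM, whereas in the other 5 libraries the SC224 genes sit between 360 and 525 CPM and the other groups at 3.62 CPM or less.

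Cold replicate 2 also differed from its group. Its scaling factor (trimmed mean of M values, TMM) was 1.184, against 0.6662 to 0.8083 in the other 5 libraries. The 100 most abundant genes took 31.3% of its counts, against 42.6% to 47% in the others. Between the groups this share was 40.3 ± 8.1% in the cold and 44.8 ± 0.794% in controls (SD, n = 3), with an exact two-sided permutation p of 0.6 (the smallest possible is 0.1). Replicates 2 and 3 of the controls were the most alike, with a correlation across genes of 0.9652 in log2 CPM, and control replicate 1 reached 0.8742 and 0.8733 with them. Cold replicates 1 and 3 correlated at 0.9448, and cold replicate 2 reached 0.8615 and 0.8958 with them. Genes are not independent replicates, so these values describe the libraries.

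An hour of cold at ZT1 moved 2022 of 18248 genes tested in SC224 leaves, by edgeR's quasi-likelihood test with a Benjamini-Hochberg adjusted p under 0.05. Of these, 904 genes (4.95% of those tested) rose and 1118 genes (6.13%) fell. The median log2 fold change of the genes that rose was 1.57, with quartiles of 1.05 and 2.38, and that of the genes that fell was -1.61. Over all genes tested the median was -0.0165. These values come from a fit in which all 48 libraries of the cold experiment share an estimate of the spread. A fit of the 6 libraries alone tested 12684 genes and called 140 raised and 171 lowered. Leaf RNA was measured in bulk, so fewer cells of a type and less RNA per cell cannot be told apart.

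The genes that rose started from lower levels than those that fell. Their median level went from 7.14 CPM in controls to 22.1 CPM in the cold (here and for all gene levels that follow, CPM is scaled by the TMM factor). For the genes that fell, the median went from 39.5 to 13.2 CPM. These levels are from the libraries that chose the genes and are a description. A change of at least 1 on the log2 scale was reached by 705 of the raised genes (78.0%) and 908 of the lowered (81.2%), and one of at least 3 by 149 (16.5%) and 181 (16.2%). No count was present in any control for 21 raised genes, nor in any cold library for 35 lowered genes. With those genes set to the bound that 3 counts over the group allow, the medians were 1.56 and -1.59. A change of at least 3 was then reached by 137 raised and 157 lowered genes.

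All 3 cold libraries lay above all 3 controls for 805 of the raised genes (89.0%), and below them for 966 of the lowered genes (86.4%). Over all genes tested, 10.4% lay entirely above and 11.1% entirely below. From the lists made without control replicate 1, 769 of 793 raised genes (97.0%) lay above both remaining controls and 961 of 970 lowered genes (99.1%) below them, beside 17.8% and 20.1% of all genes tested. These counts come from the contrast that chose the genes.

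Without control replicate 1, 18749 genes were tested, 802 rose (4.28%) and 976 fell (5.21%). Of the 904 raised genes, 623 (68.9%) were called in the same direction, none changed sign, and their median log2 fold change was 1.58. Of the 1118 lowered genes, 776 (69.4%) were called in the same direction, 10 changed sign, and the median was -1.48. Another 179 raised and 200 lowered genes were called only without it. Cold replicate 2 weighed more on the counts: without it 445 genes rose and 585 fell, and without both libraries 392 rose and 475 fell. Control replicate 3 mattered for the rises, with 572 raised genes without it.

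**Figure D2:**
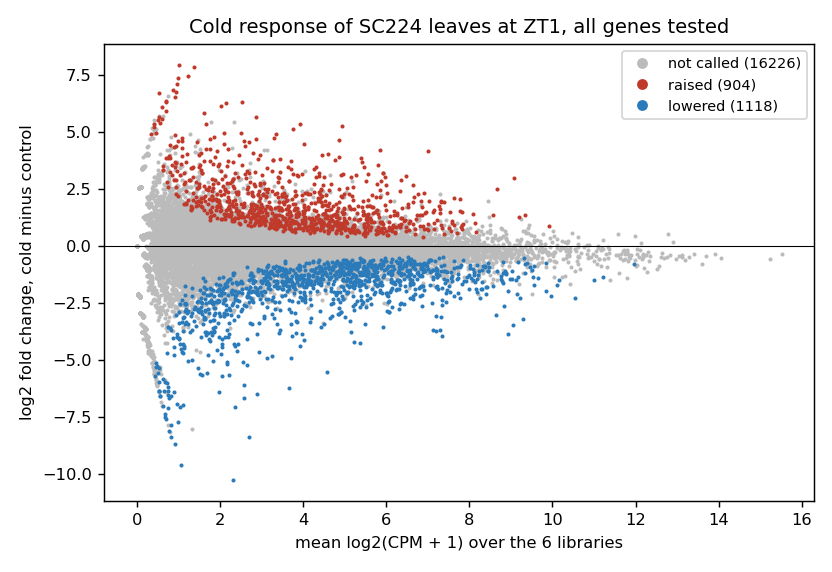
Log2 fold change of cold against control in SC224 leaves at ZT1 (vertical axis) against the mean log2(CPM + 1) over the 6 libraries (horizontal axis), 1 point per gene tested, with 904 raised genes in red and 1118 lowered genes in blue. The narrow diagonal streaks at the left are genes with no count in 1 of the groups, whose fitted fold change is no measure of size.

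The direction of the majority depended on how libraries were scaled. With TMM factors 44.7% of the called genes rose. With library totals alone 1795 genes rose and 586 fell, so that 75.4% rose, and the median of all genes moved up by 0.37 on the log2 scale. RLE size factors in place of TMM gave 880 raised and 1149 lowered genes. The excess of lowered genes therefore holds on the scale of these factors and not on that of library totals.

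Lowered genes made up a larger share of the abundant transcripts than of the others. Genes were ranked by their level in RTX430 controls at ZT1, which are not part of the contrast. Among the 1000 most abundant, 157 (15.7%) fell and 13 (1.3%) rose, with a median log2 fold change of -0.412. Among the other 17248 genes, 961 (5.57%) fell and 891 (5.17%) rose, with a median of 0. Without control replicate 1 the counts among the 1000 were 128 lowered and 12 raised. With library totals alone, 92 of the 1000 (9.2%) fell and 42 (4.2%) rose, with a median of -0.0971, and of the others 494 (2.86%) fell and 1753 (10.2%) rose, with a median of 0.387. Of the 100 most abundant genes, 5 fell and none rose, and 2 fell without control replicate 1 and 3 with library totals.

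The called genes were spread over all chromosomes, as read from the identifiers. Raised genes made up between 4.03% of the genes tested on chromosome 4 and 6.23% on chromosome 7, and lowered genes between 4.64% on chromosome 5 and 7.16% on chromosome 6. The next tested gene on the chromosome was also raised for 60 of 901 raised genes (6.66%) and also lowered for 92 of 1118 lowered genes (8.23%), beside shares over all genes tested of 4.95% and 6.13%. The longest runs were 3 raised and 4 lowered genes. Without control replicate 1 the shares ran from 3.56% on chromosome 4 to 5.79% on chromosome 7 for raised genes, and from 3.08% on chromosome 8 to 6.22% on chromosome 4 for lowered genes. The next gene was then also raised for 53 of 801 (6.62%) and also lowered for 76 of 976 (7.79%).

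Cold lowered more genes at ZT1 than at the later times, also without control replicate 1 and cold replicate 2 (475 genes). With all libraries it also raised more genes at ZT1. Without these libraries 392 genes rose at ZT1, more than at ZT6 and ZT15 but fewer than at ZT9 in the full fit. In SC224, cold raised 372 genes (2.04%) and lowered 147 (0.806%) at ZT6. It raised 402 (2.2%) and lowered 93 (0.51%) at ZT9, and raised 184 (1.01%) and lowered 16 (0.0877%) at ZT15. These comparisons share no library with ZT1. Of the 904 genes raised at ZT1, 141 (15.6%) were also raised at ZT6, 160 (17.7%) at ZT9 and 71 (7.85%) at ZT15. Of the 1118 genes lowered at ZT1, 17 (1.52%), 14 (1.25%) and 2 (0.179%) were lowered at those times. Without cold replicate 2 the raised list shrank to 445 genes, and the shared counts shrank less. Of the 445, 126 (28.3%) were raised at ZT6, 139 (31.2%) at ZT9 and 66 (14.8%) at ZT15. Without both libraries the shares were 31.9%, 34.2% and 16.1% of 392.

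Most of the ZT1 calls were not made at any later time. This held for 722 of the raised genes (79.9%) and 1094 of the lowered genes (97.9%), a count that does not by itself show a difference between times. Another 61 genes were raised at all 4 times, and 1 gene was lowered at all 4. Without control replicate 1, 633 of 802 raised genes (78.9%) and 956 of 976 lowered genes (98.0%) were called at ZT1 only, and 62 were raised at all 4 times. The share of raised genes called at ZT1 only is smaller without cold replicate 2. In that setting 139 of 445 raised genes (31.2%) were raised at ZT9, whatever their calls at ZT6 and ZT15. The median log2 fold change of the raised genes was 0.0172, 0.21 and 0.0312 at ZT6, ZT9 and ZT15, and that of the lowered genes was 0.0834, 0.0687 and 0.0795. When control replicate 1 was left out, 138 of 802 raised genes (17.2%) were raised at ZT6 and 12 of 976 lowered genes (1.23%) were lowered there.

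The difference between times was tested directly, as the ZT1 response minus the mean of the responses at the 3 later times. It differed for 2224 genes by edgeR's test, 971 higher at ZT1 (5.32% of those tested) and 1253 lower (6.87%). Among the 971, the median log2 fold change was 1.31 at ZT1 and -0.393 over the later times. Among the 1253 it was -1.3 at ZT1 and 0.359 over the later times. These genes were chosen for that difference, which favours medians of opposite sign, and they are a description. Without control replicate 1 the count was 2364, with medians of 1.39 and -1.4 at ZT1 and of -0.421 and 0.396 later, and without cold replicate 2 it was 875. The number higher at ZT1 was 278 without cold replicate 2, 273 without that library and control replicate 1, and 538 without control replicate 3. The number lower at ZT1 was 597 without cold replicate 2. With library totals alone the count was 4277, of which 3669 were higher.

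The genes that moved in the cold at ZT1 were then read in RTX430 plants kept without cold. These RTX430 controls share no library with the SC224 contrast. Between their ZT1 and ZT6 controls, 2447 genes (13.4%) were higher at ZT6 and 1993 (10.9%) were lower. Of the 1118 genes that cold lowered in SC224 at ZT1, 499 (44.6%) were lower at ZT6 and 61 (5.46%) higher. Of the 904 genes that cold raised, 271 (30.0%) were higher at ZT6 and 56 (6.19%) lower. As shares of the RTX430 lists, these are 25% of the genes lower at ZT6 and 11.1% of the genes higher.

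The median change of the raised genes from ZT1 to ZT6 was 0.483 on the log2 scale, and that of the lowered genes was -0.795, beside 0.0426 over all genes tested. With SC224 control replicate 1 left out, 443 of 976 lowered genes (45.4%) were lower at ZT6, and 239 of 802 raised genes (29.8%) were higher. Leaving out cold replicate 2 gave 49.7% and 30.8%, and leaving out both libraries gave 52.4% and 30.9%. With library totals alone the shares were 32.9% and 43.6%, beside 921 lower and 4381 higher genes among all those tested.

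The time of the highest level in RTX430 controls divided the sets in the same direction. Of the lowered genes, 68.8% had their highest mean level at ZT1, and 9.39% at ZT15. Of the raised genes, 51.1% had their highest level at ZT15 and 14.3% at ZT1. Over all genes tested the shares were 32.6% at ZT1 and 30.9% at ZT15. The lowest level fell at ZT1 for 58.4% of the raised genes, 10.0% of the lowered and 38.9% of all. Leaving out control replicate 1 gave 69.9% of lowered genes highest at ZT1 and 52.6% of raised genes highest at ZT15. Scaled by library totals alone, 42.8% of the lowered genes were highest at ZT1, beside 13.7% of all, and 71.3% of the raised genes were highest at ZT15, beside 56.0% of all.

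**Figure D3:**
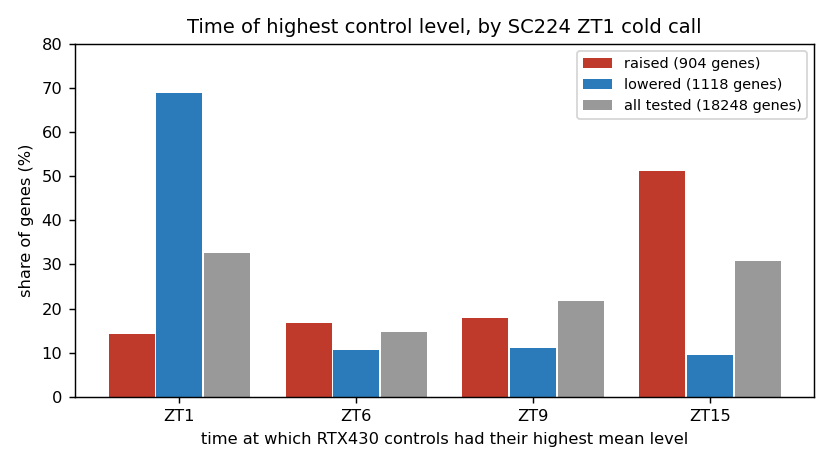
Share of genes (%) whose mean level in RTX430 controls was highest at each of 4 times of day, for genes raised (red) or lowered (blue) by cold in SC224 at ZT1 and for all genes tested (grey). Lowered genes stand at 68.8% at ZT1 against 32.6% of all genes, and raised genes at 51.1% at ZT15 against 30.9%.

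Levels in each library show the same course. The median log2(CPM + 1) of the 1118 lowered genes was 5.39, 5.28 and 5.25 in the SC224 controls at ZT1 and 3.94, 3.44 and 3.95 in the cold libraries. In SC224 controls of the later times it averaged 4.18, 3.99 and 3.66, in order of time, and single control libraries of those times lay between 3.45 and 4.31. The ZT1 cold libraries stood at about these levels. In RTX430 it went from a mean of 5.07 in ZT1 controls to 4.23 in the cold.

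For the 904 raised genes the median was 2.93, 3.06 and 2.93 in SC224 controls at ZT1 and 4.35, 4.77 and 4.27 in the cold libraries. Controls averaged 3.86, 3.77 and 4.05 at the 3 later times, below all 3 cold libraries of ZT1. In RTX430 the raised genes went from a mean of 3.2 to 4.27. All genes tested had a median of 3.32 in SC224 controls and 3.34 in the cold at ZT1. As a share of all counts, the raised genes took 1.23%, 1.23% and 1.19% in controls and 3.26%, 6.98% and 3.56% in the cold, with cold replicate 2 the highest. The lowered genes took 11.5%, 8.8% and 10.2% in controls and 4.28%, 4.92% and 4.7% in the cold. Levels from SC224 at ZT1 come from the libraries that chose the genes. In the lists made without control replicate 1, that library stood at a median of 3.53 for raised genes, against 3.09 and 2.93 in the other controls and 4.51, 4.9 and 4.41 in the cold. For lowered genes it stood at 4.88, against 5.32 and 5.35 in the other controls and 3.86, 3.15 and 3.92 in the cold.

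**Figure D4:**
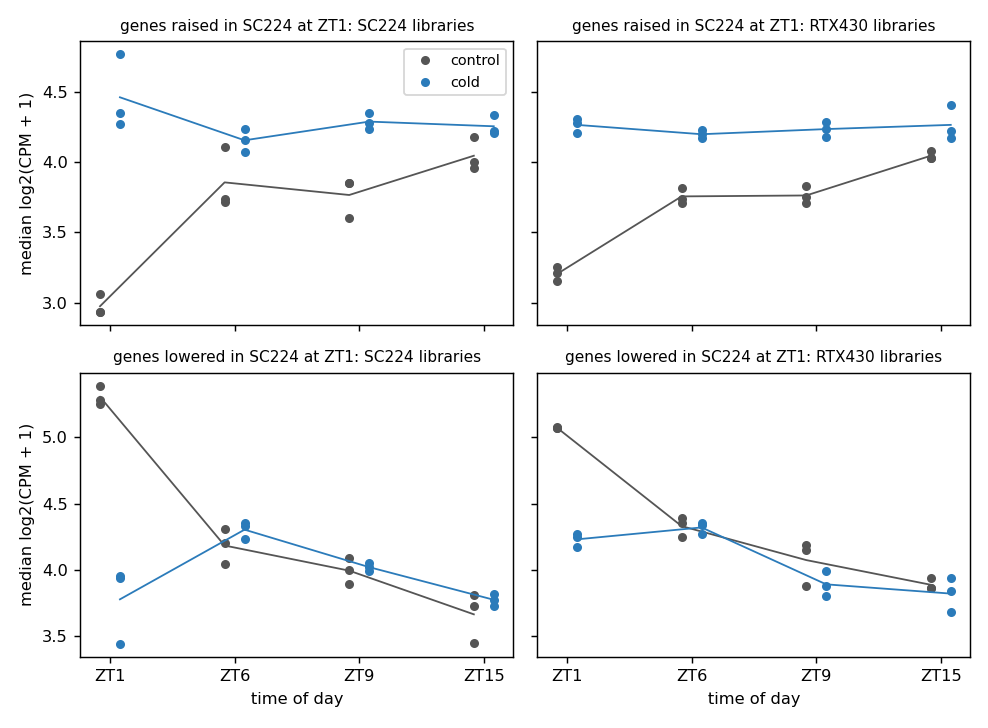
Median log2(CPM + 1) of the 904 raised genes (top) and the 1118 lowered genes (bottom) in each SC224 library (left) and RTX430 library (right) by time of day, with 1 point per library and lines through group means. At ZT1 in SC224 the lowered genes drop from between 5.25 and 5.39 in controls to between 3.44 and 3.95 in the cold, and at the later times their cold and control groups lie close together.

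The raised genes fell into those called at ZT1 only and those also called later. The 722 genes called at ZT1 only had a median log2 fold change of 1.42 at ZT1. Of these, 241 (33.4%) were higher at ZT6 than at ZT1 in RTX430 controls, and 28 (3.88%) were lower. The 182 genes also raised at a later time had a median of 2.21. Of these, 30 (16.5%) were higher and 28 (15.4%) lower at ZT6 in RTX430 controls. Among the 1094 genes lowered at ZT1 only, 493 (45.1%) were lower at ZT6. In the lists made without control replicate 1, 208 of 633 genes raised at ZT1 only (32.9%) were higher at ZT6 in RTX430 controls, 31 of 169 also raised later (18.3%) were higher, and 438 of 956 lowered at ZT1 only (45.8%) were lower. This division uses calls made in SC224 and is a description. It is not given without cold replicate 2, where the raised list held 445 genes.

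In RTX430, cold at ZT1 raised 568 genes (3.11%) and lowered 635 (3.48%), and the genes it shared with the SC224 calls moved in the same direction. Of the 904 genes raised in SC224, 361 (39.9%) rose in RTX430 and none fell. These are 63.6% of the genes raised in RTX430. Of the 1118 lowered in SC224, 409 (36.6%) fell in RTX430 and none rose, which is 64.4% of the genes lowered there. Over the SC224 lists the median log2 fold change in RTX430 was 0.816 and -0.878, and 89.4% and 93.6% of the genes had the same sign, beside a median of -0.026 over all genes tested. Without cold replicate 2 the shares were 62.9% for rises and 55.9% for falls, and 67.9% and 61.1% without both libraries. Of the 802 genes raised without control replicate 1, 332 (41.4%) rose in RTX430, and of the 976 lowered genes 381 (39%) fell and 2 rose.

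The genes raised also at later times included the larger share raised in RTX430, which was not tested. Of these 182 genes, 156 (85.7%) rose in RTX430 at ZT1, with a median log2 fold change of 2.34. Of the 722 genes called at ZT1 only, 205 (28.4%) rose in RTX430, with a median of 0.643. Of the 61 genes raised at all 4 times in SC224, 58 (95.1%) rose in RTX430. Leaving out control replicate 1, these were 149 of 169 (88.2%), 183 of 633 (28.9%) and 57 of 62 (91.9%). The classes are not given without cold replicate 2, where 280 of all 445 raised genes (62.9%) rose in RTX430. Read from the RTX430 lists, 544 of the 568 raised genes (95.8%) had a fold change above 0 in SC224, with a median of 1.48, although 207 of the 568 were not called there. Of the 635 lowered genes, 613 (96.5%) had a fold change below 0 in SC224, with a median of -1.32, and 226 of the 635 were not called. With control replicate 1 left out, the same signs held for 544 (95.8%) and 603 (95%), and 249 and 284 were not called.

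The difference between the SC224 and RTX430 responses at ZT1 was called for 2 genes by edgeR's test, both lower in SC224. At an unadjusted p under 0.05 there were 1314 genes (7.2% of those tested), and DESeq2 called 24. Without SC224 control replicate 1 the count was 1 gene, higher in SC224. A difference that misses the threshold does not show that plants of the SC224 and RTX430 labels respond alike.

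Sobic.001G380700 was called in that difference. Its level in SC224 at ZT1 was 12.3, 5.06 and 5.8 CPM in controls and 0.587, 0 and 0.644 CPM in the cold. In RTX430 it was 1.26, 1.58 and 1.06 CPM in controls and 0.974, 2.29 and 1.75 CPM in the cold. The SC224 groups did not overlap, whereas the RTX430 groups did, and the SC224 cold libraries were below every RTX430 library of that time. These levels rest on few counts: 1, 0 and 2 in SC224 cold libraries, 4, 8 and 3 in RTX430 controls, and 2, 10 and 12 in RTX430 cold libraries. The size of the difference is therefore uncertain. The difference of the responses was -4.48 on the log2 scale (SE 0.836, edgeR adjusted p = 0.0497), and over 19 alternatives the adjusted p ran from 0.0156 to 0.762, under 0.05 in 4 of them. Without SC224 control replicate 1 it was 0.109.

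Sobic.001G448300 was the other. Its level in SC224 was 11.9, 15 and 9.94 CPM in controls and 1.76, 2.19 and 1.93 CPM in the cold. In RTX430 it was 9.74, 14.6 and 14.2 CPM in controls and 12.2, 14 and 10.4 CPM in the cold. All 3 SC224 cold libraries lay well under the other 9 libraries of ZT1, which overlapped. The difference of the responses was -2.55 (SE 0.479, edgeR adjusted p = 0.0497), with an adjusted p of 0.0108 to 0.344 over 19 alternatives, under 0.05 in 3 of them. Without SC224 control replicate 1 it was 0.0977.

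The genes named from the response of SC224 itself are the 2 largest rises and the 2 largest falls among genes called with and without control replicate 1, whose groups did not overlap and whose mean was at least 10 CPM. Sobic.002G269400 was raised at every time of day. It stood at 0.441, 0.938 and 0.414 CPM in SC224 controls at ZT1 and at 30.0, 23.2 and 51.8 CPM in the cold. The groups did not overlap, and the log2 fold change was 5.65 (SE 0.558, edgeR adjusted p = 6.49e-09), or 5.5 without control replicate 1. Its log2 fold change was 7.36, 6.69 and 5.42 at the 3 later times in SC224, in order of time, and 6.99 at ZT1 in RTX430, each called.

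Sobic.006G093200 rose at ZT1 under both labels. Its level was 0.881, 0.188 and 0 CPM in SC224 controls and 23.5, 38.9 and 17.1 CPM in the cold, so that 182 counts in the cold libraries faced 3 in the controls. The ratio after scaling was 85.7, with an exact 95% interval of 28.9 to 419 that covers counting error only (199, with an interval of 35.2 to 7890, without control replicate 1), and the edgeR adjusted p was 2.35e-05. The gene also rose in RTX430 at ZT1, by 5.17 on the log2 scale (edgeR adjusted p = 0.00103). At the later times its log2 fold change in SC224 was 0.43, 0.64 and -0.23, none called.

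Sobic.003G062200 was present in SC224 mainly in the ZT1 controls. Its level there was 74.0, 7.88 and 23.2 CPM, highest in control replicate 1, and no count was found in the 3 cold libraries. It was at least 62.8-fold lower in the cold, with 3 counts over the group as the floor, and at least 29.9-fold lower without control replicate 1 (edgeR adjusted p = 1.44e-05 with it and 6.4e-05 without). In a fit of only the libraries concerned the adjusted p was 0.0675. RTX430 controls at ZT1 held 1.26, 0.394 and 2.12 CPM.

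Sobic.003G045900 also fell from a morning level. Its level was 55.9, 22.7 and 15.7 CPM in SC224 controls at ZT1 and 0.587, 0 and 0.322 CPM in the cold. The ratio was 101, with an exact 95% interval of 27.8 to 840 for counting error only (72.8, with 19.8 to 606, without control replicate 1), and the edgeR adjusted p was 3.92e-05. In RTX430 at ZT1 the log2 fold change was -2.98 (edgeR adjusted p = 0.108). In RTX430 controls it was lower at ZT6 than at ZT1, by -4.34 on the log2 scale (edgeR adjusted p = 0.0101), and so was Sobic.003G062200 (-5.39, edgeR adjusted p = 0.0105).

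**Figure D5:**
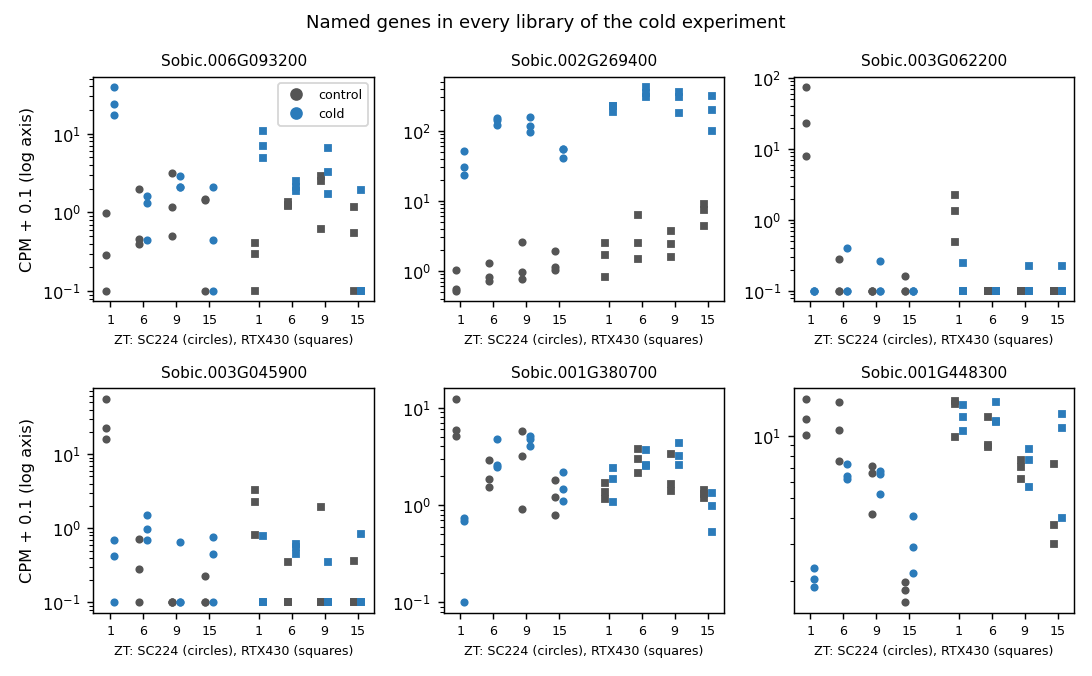
Level of 6 genes in every library of the cold experiment, in CPM plus 0.1 on a log axis, by time of day, with controls in grey, cold libraries in blue, SC224 as circles and RTX430 as squares. Sobic.002G269400 is higher in the cold at every time in both labels, whereas the falls of Sobic.003G062200 and Sobic.003G045900 in SC224 are at ZT1, where their controls are highest.

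Heat for 1 h at ZT1, measured in another experiment with libraries of its own, moved more genes. It raised 3555 genes (19.1%) and lowered 3386 (18.2%) in Macia, and raised 3657 (19.6%) and lowered 2985 (16%) in the heat-experiment RTX430, of 18648 genes tested. Of the 904 genes raised by cold in SC224, 878 were tested there. In Macia 253 of them (28.8%) rose in heat and 151 (17.2%) fell, and in RTX430 268 (30.5%) rose and 134 (15.3%) fell. Of the 1118 lowered genes, 1096 were tested, of which 352 (32.1%) fell and 261 (23.8%) rose in Macia, and 359 (32.8%) fell and 268 (24.5%) rose in RTX430. From the lists made without control replicate 1, 216 of 779 raised genes rose in heat in Macia (27.7%) and 303 of 965 lowered genes fell (31.4%). In RTX430 they were 241 (30.9%) and 336 (34.8%).

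The share of raised genes that also rose in heat was larger among those with calls at later times, a difference that was not tested. The classes are not given without cold replicate 2. Of the genes raised by cold at ZT1 only, 25.3% rose and 19.7% fell in heat in Macia, and 25% rose and 16.9% fell in the heat-experiment RTX430. Of the genes raised by cold also at later times, 43.1% rose and 6.9% fell in Macia, and 52.9% rose and 8.62% fell in RTX430. When control replicate 1 was left out, 23.9% and 24.6% of the first class and 42.1% and 54.9% of the second rose in Macia and RTX430. Sobic.002G269400 was among the latter in Macia, with a log2 fold change in heat of 3.69 (edgeR adjusted p = 1.08e-06). In the heat-experiment RTX430 its log2 fold change was 0.89 (edgeR adjusted p = 0.309).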

How the data were processed

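The authors deposited raw counts of 34129 genes from 96 libraries, sequenced as 75-nt single-end reads. The submitters' processing notes list HISAT2 and DESeq2 without role or version. The counting program, genome build, use of strand and handling of reads matching several places are not given in the sources used here, so genes with near-identical copies or overlapping neighbours are uncertain.

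Counts of the 48 cold-experiment libraries were fitted in R 4.3.3 with edgeR 4.0.16 (limma 3.58.1): 16 group means in 1 model, filterByExpr (minimum count 10, minimum total count 15, 18248 genes kept, holding 99.773% to 99.874% of each SC224 ZT1 library), TMM factors and the quasi-likelihood F-test, with Benjamini-Hochberg adjusted p under 0.05. The heat experiment was fitted apart in the same way. SE is the absolute log2 fold change divided by the square root of F. The common biological coefficient of variation was 0.354. Library totals over the series were 1059841 to 11545393 counts (median 3642164.5). PCR duplicates were not removed here, so intervals and floors cover counting error only. Within the SC224 ZT1 groups, replicates differed by more than sampling noise, so each was counted as 1 sample. The fits were tested on simulated data.

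The members, lists, label-specific genes and alternatives were chosen with earlier results of these data known. Named genes are the 2 largest rises and 2 largest falls by identifier under the rule stated with them, and the genes called between the labels. The planned gene lists, leaf markers and promoter motifs were not run, because no table used here pairs the identifiers with names or sequences. Alternatives were RLE size factors, library totals alone, DESeq2 1.42.0, no filter, only the libraries concerned, a replicate block and leaving out each library. Leaving out control replicate 1 and cold replicate 2 together, and the classes by abundance and time of highest level with library totals, were added after seeing the data.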

Additional observations from a re-analysis of the deposited data

Results flagged for a closer look

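The cold response of SC224 leaves differed between ZT1 and the mean of the later times for 2224 genes by edgeR's test of the difference, Benjamini-Hochberg adjusted over 18248 genes. The count without SC224 ZT1 cold replicate 2 was 875, and without control replicate 1 it was 2364. The part of either library in the result beyond these counts was not tested.

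The response at ZT1 differed between SC224 and RTX430 libraries for 2 genes by the same test. The difference of the log2 fold changes, SC224 minus RTX430, was -4.48 for Sobic.001G380700 and -2.55 for Sobic.001G448300, both at an edgeR adjusted p of 0.0497, just under the threshold. Control replicate 1 held the highest of the 3 SC224 control levels of Sobic.001G380700 (12.3 CPM, against 5.06 and 5.8) and the middle one of Sobic.001G448300.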

How the results depend on the processing

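The count of genes called in SC224 at ZT1 (2022) was 311 in a fit of only the libraries concerned, where 12684 genes passed the filter, 1030 to 1875 with 1 library left out (lowest without cold replicate 2, highest without cold replicate 1) and 867 without control replicate 1 and cold replicate 2. DESeq2 gave 2169, RLE size factors 2029, library totals 2381 and no filter 1669. The count for ZT1 against the later times (2224) was 4277 with library totals, 848 without both libraries and 875 to 2425 with 1 library left out. The count between SC224 and RTX430 (2) was 24 with DESeq2, 0 with library totals, without the filter, with only the libraries concerned and without both libraries, and 0 to 9 with 1 library left out. Without SC224 control replicate 2 or 3 it was 9 or 8. For RTX430 controls (4440) only the libraries concerned gave 2639. Beyond the fewer genes tested or fewer samples, the cause was not tested. No named gene and no difference between labels of a named gene changed sign, but the majority of the SC224 ZT1 calls did, from 44.7% raised to 75.4% with library totals. Without SC224 control replicate 1, 10 of the 1118 lowered genes changed sign, and the 1 gene called between the labels was higher in SC224.

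Deviations of same-numbered control and cold libraries from their group means correlated at -0.305, -0.351 and 0.32, while control replicate 1 and cold replicate 2 reached 0.433. Such few values, with these last libraries standing apart from their groups, cannot show whether replicate numbers pair the samples. With the replicate block the counts were 1709 for SC224 at ZT1, 1882 against the later times, 0 between the labels and 4203 for RTX430 controls.

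Depth limits low genes: the shallowest library held 1933892 counts, and the size of a change is uncertain where 1 group has only a few counts, as the intervals of the named genes show.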
